A study of Drosophila melanogaster with 4 samples.

Results

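The element blood is a long terminal repeat (LTR) retrotransposon of *Drosophila melanogaster*, named after an eye-colour allele of *white* that it caused. It was chosen by its name and is 1 of 150 reference sequences in the deposited tables, 124 of which are transposons. Its consensus is 7410 nt long, and the deposited counts per position were taken as reads with their 3' end there, which the files do not state. There were 4 direct RNA libraries, with 1 library in each group. The ovary pair came from flies kept at 25 °C that carried Tj-GAL4, which drives expression in ovarian somatic cells, with the vretenoGD hairpin or, as control, the arrestin2GD hairpin. *vreteno* encodes a Tudor-domain factor of piRNA production, and *arrestin2* a protein of the eye. The driver leaves the germ cells of these ovaries untargeted, and each library holds RNA of the whole organ. The other pair came from OSCs, a cultured line labelled as somatic follicle cells, treated with siPIWI, which targets the nuclear Piwi protein, or with siGFP as control. The mRNAs targeted by the knockdowns were not analysed here, and neither knockdown was checked at its target.

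An LTR retrotransposon is copied through an RNA that starts in its first terminal repeat and ends in its last. The terminal repeats flank genes for Gag, which forms particles, and Pol, which holds the reverse transcriptase and integrase. The blood element belongs to the mdg1 group of the Ty3/gypsy class. In ovarian somatic cells, piRNAs, small RNAs loaded on Piwi, silence elements of this class in the nucleus.

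In the Ensembl annotation of the reference strain (BDGP6.54), 29 insertions carried the name blood, of which 25 lay within 50 nt of the consensus length, at 7395 to 7443 nt. Of all 29, 12 were on 2L, 7 on 3R, 4 on 2R, 3 on 3L, 2 on X and 1 on Y. By protein-coding genes, 16 were intergenic, 11 lay in introns and 2 overlapped an exon. One intronic copy lay in *chinmo*, a gene for a zinc-finger transcription factor, at chr2L:1679032-1686439 on the plus strand, the strand of the gene. The counts are given per consensus position, so no read could be assigned to any of these copies, and the flies and cells used may carry others. No sequence of blood was at hand, so none is shown.

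Transposon reads numbered 5156 in the vretenoGD ovary library, 2382 in the arrestin2GD ovary library, 164243 in the siPIWI OSC library and 57045 in the siGFP OSC library. Values in ovary thus carry the wider intervals. With 1 library per group there was no test across conditions. Intervals below cover 95%, hold counting error alone and compare libraries rather than conditions. Those of shares, folds and odds ratios are exact, and that of a difference of log2 folds is a normal approximation.

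Reads of blood were more numerous in both knockdown libraries than in their controls. There were 317 in vretenoGD ovaries against 49 in arrestin2GD ovaries, and 3759 in siPIWI OSCs against 308 in siGFP OSCs. The share of transposon reads was 6.15% in vretenoGD ovaries (interval 5.51 to 6.84) against 2.06% in arrestin2GD ovaries (1.53 to 2.71). It was 2.29% in siPIWI OSCs (2.22 to 2.36) against 0.540% in siGFP OSCs (0.481 to 0.604). Within each pair the knockdown library was higher and the intervals did not overlap. In order, the share was highest in vretenoGD ovaries and lowest in siGFP OSCs, and the intervals of siPIWI OSCs and arrestin2GD ovaries overlapped. By number of reads blood ranked 6th among the transposons of vretenoGD ovaries against 11th in arrestin2GD ovaries, and 6th in siPIWI OSCs against 7th in siGFP OSCs.

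These shares move with copia, the retrotransposon with most reads in OSCs. With copia left out of the total, blood held 7.45% in vretenoGD ovaries (6.68 to 8.28) against 2.60% in arrestin2GD ovaries (1.93 to 3.42). In OSCs it then held 4.86% with siPIWI (4.71 to 5.02) against 2.02% with siGFP (1.80 to 2.25). The intervals of the 2 control libraries overlapped on this scale, which they did not with copia included.

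**Figure D1:**
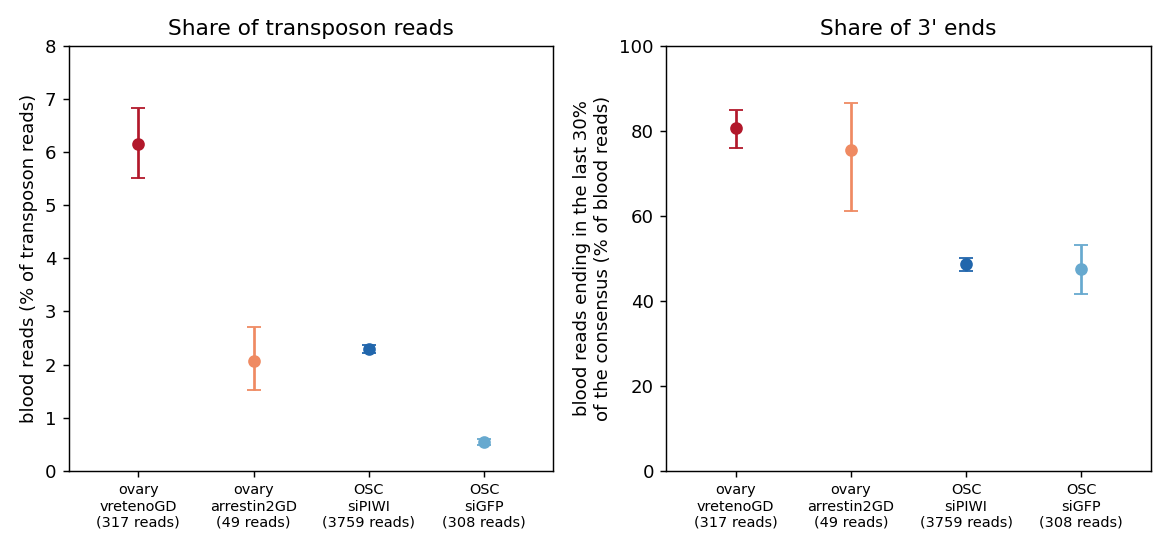
Left, reads of blood as a percentage of the transposon reads of each library; right, the percentage of blood reads that ended in the last 30% of the consensus. Points are single libraries and bars exact 95% counting intervals. The share of transposon reads was higher in the knockdown library of each pair, 6.15% against 2.06% in ovary and 2.29% against 0.540% in OSCs, while the share of 3' ends was 80.8% and 75.5% in the vretenoGD and arrestin2GD ovary libraries and 48.6% and 47.4% in the siPIWI and siGFP OSC libraries.

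To compare reads within a pair, knockdown reads were divided by the median knockdown-to-control ratio of the transposons that had at least 10 reads in each of the 2 libraries, 0.903 in ovary (30 transposons) and 1.99 in OSCs (54 transposons). On this scale blood was 7.16-fold higher in vretenoGD than in arrestin2GD ovaries (5.29 to 9.89), and 6.15-fold higher in siPIWI than in siGFP OSCs (5.47 to 6.93). The uncertainty of the median ratio can multiply any ovary fold by 0.845 to 1.19, and any OSC fold by 0.754 to 1.28. Blood was itself among the transposons behind these ratios. Without it the median ratios were 0.862 in ovary and 1.93 in OSCs, which makes both folds slightly higher. Scaled to total transposon reads, the folds were 2.99 in ovary and 4.24 in OSCs. More cells that express blood and more blood RNA per cell cannot be told apart in these bulk samples.

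Both folds passed a rule of 4-fold on the log2 scale with a pseudocount of 1 read. Under total scaling blood did not pass it in ovary (log2 ratio 1.56), and with copia left out of the total it passed in neither tissue (1.5 in ovary and 1.27 in OSCs). With at least 10 reads in both libraries of the pair, 10% of transposons passed in ovary (3 of 30) and 18.5% in OSCs (10 of 54), blood included, and blood ranked 3rd and 8th. With 10 reads in either library, which lets in elements through the library where they are high, 26.7% passed in ovary (12 of 45) and 24.7% in OSCs (18 of 73). Ordered by log2 ratio with that lower minimum, blood came 8th of 45 in ovary, at 2.82 where the median over these transposons was 0.26, and 14th of 73 in OSCs, at 2.62 where the median was 0.27. Whether the 2 folds differed depended on the scaling. The log2 fold in OSCs minus that in ovary was -0.22 (-0.69 to 0.25), an interval that includes 0. The interval excluded 0 with total scaling, at 0.50 (0.04 to 0.97), unscaled, at 0.92 (0.45 to 1.38), and in the other direction scaled to non-transposon reads, at -0.91 (-1.38 to -0.44).

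Reads of blood ended in 2 places far apart. One lay in the last part of the element, mainly between positions 7301 and 7390, in the part that ends the last terminal repeat. The other lay between positions 1401 and 1700, a stretch of 300 nt. The 5100 nt between 1701 and 6800 held 9 of 317 reads in vretenoGD ovaries, 1 of 49 in arrestin2GD ovaries, 65 of 3759 in siPIWI OSCs and 18 of 308 in siGFP OSCs. These stretches were drawn after the positions had been seen.

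**Figure D2:**
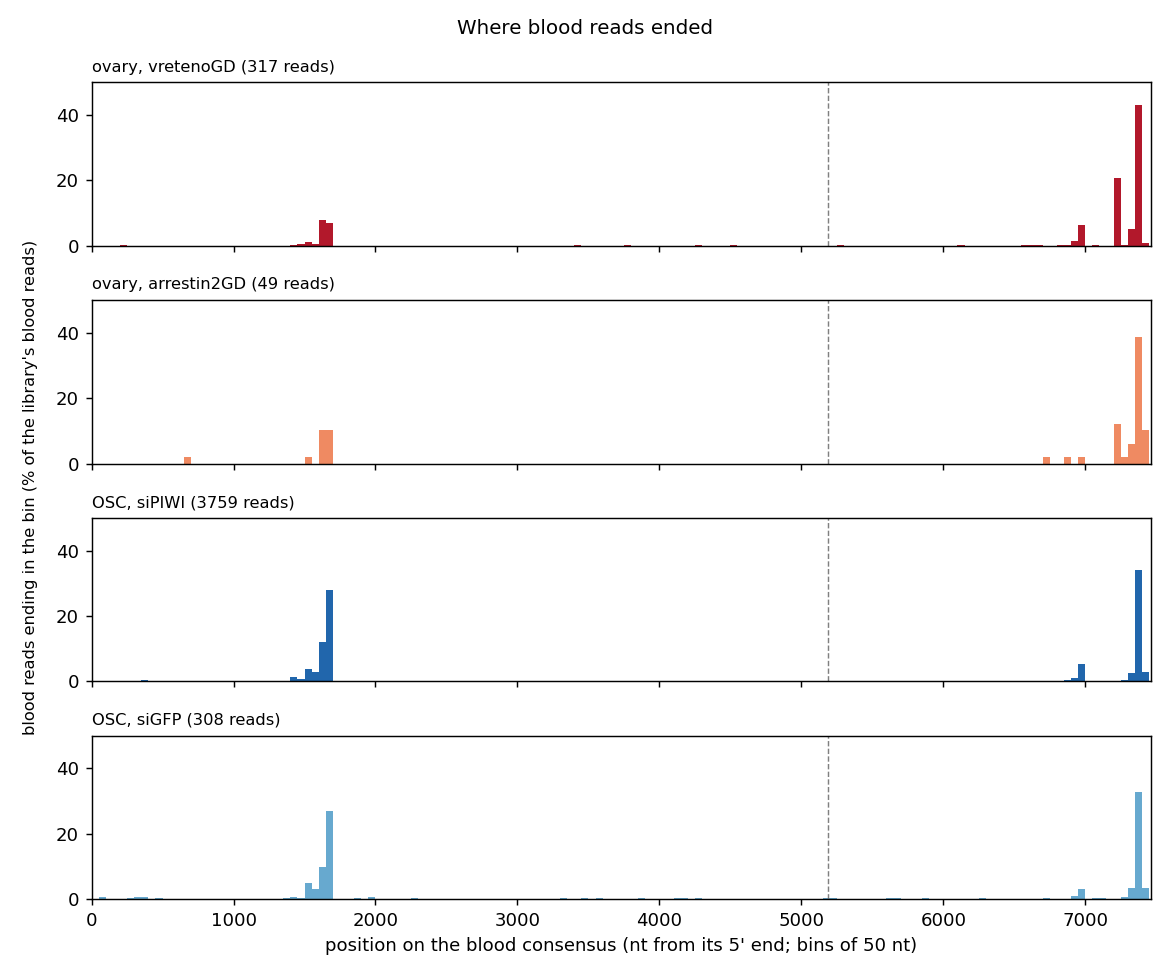
Percentage of each library's blood reads that ended in each 50-nt bin of the consensus, from its 5' end on the left; the dashed line marks 70% of the length. All 4 libraries show ends near 1400 to 1700 and near the 3' end, and the ovary libraries also show a bin that holds position 7240.

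The deposited counts were divided at 70% of the consensus, between positions 5187 and 5188, into 3' ends and upstream ends. The 3' ends numbered 256 of 317 in vretenoGD ovaries and 37 of 49 in arrestin2GD ovaries, or 80.8% (76.0 to 84.9) and 75.5% (61.1 to 86.7). They numbered 1826 of 3759 in siPIWI OSCs and 146 of 308 in siGFP OSCs, or 48.6% (47.0 to 50.2) and 47.4% (41.7 to 53.1). The intervals of the 2 libraries of each pair overlapped, and both ovary intervals lay above both OSC intervals.

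Both kinds of end were more numerous in the knockdown, by similar factors. In ovary, 3' ends were 7.66-fold higher with vretenoGD (5.41 to 11.1) and upstream ends 5.63-fold higher (61 against 12 reads, 3.0 to 11.5). In OSCs, 3' ends were 6.30-fold higher with siPIWI (5.32 to 7.51) and upstream ends 6.01-fold higher (1933 against 162 reads, 5.12 to 7.10). The ratio of these folds, which needs no scaling, was 1.36 in ovary (0.608 to 2.86) and 1.05 in OSCs (0.825 to 1.33). A change of the balance by more than 1.33 times in favour of 3' ends thus lies outside the OSC interval, and the ovary libraries allow a larger one.

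Among transposons with 10 or more reads in each OSC library, this ratio lay above 1 with its whole interval for 31.5% (17 of 54) and below 1 for 5.56% (3 of 54). It included 1 for blood. In ovary it lay above 1 for 6.67% (2 of 30), the elements '412' and '17.6', and not for blood, and below 1 for 0% (0 of 30). Names of digits are set in quotation marks.

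Between tissues the balance of ends differed. The odds of a 3' end were 4.44 times higher in vretenoGD ovaries than in siPIWI OSCs (3.32 to 6.02), and 3.42 times higher in arrestin2GD ovaries than in siGFP OSCs (1.66 to 7.47). Among transposons with 10 or more reads in each of the libraries compared, 12.5% (5 of 40) had such an interval above 1 between the knockdown libraries, and 12.5% (5 of 40) below 1. Those above 1 were blood, Stalker2 (3.17, 1.81 to 5.83), mdg3, springer and gypsy6, and those below 1 included mdg1 and '412'. Between the control libraries 3.85% (1 of 26) lay above 1, which was blood, and 15.4% (4 of 26) below 1. Stalker, Stalker2 and Tabor had under 10 reads in arrestin2GD ovaries and were not among these 26. Ovary and OSC libraries differ in the cells they hold, in their genetic background and in the gene knocked down, which cannot be told apart here.

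Upstream ends are the complement of 3' ends and most of them fell in 1 stretch. Positions 1401 to 1700 held 17.7% of blood reads in vretenoGD ovaries (13.6 to 22.3) against 49.0% in siPIWI OSCs (47.4 to 50.6). They held 22.4% in arrestin2GD ovaries (11.8 to 36.6) against 45.8% in siGFP OSCs (40.1 to 51.5). The intervals did not overlap in either case. Within a pair, reads in this stretch were 5.64-fold higher in ovary (56 against 11, 2.92 to 11.9) and 6.58-fold higher in OSCs (1843 against 141, 5.55 to 7.87), close to the folds of the whole element.

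Upstream ends were spread over many positions rather than gathered at 1. In siPIWI OSCs the 1933 upstream reads fell on 155 positions, with a median at 1664 and the middle 50% between 1625 and 1672. The median was 1664 in siGFP OSCs, 1641 in vretenoGD ovaries and 1648 in arrestin2GD ovaries. Position 1672 was the most used upstream position in 3 libraries, with 10 reads in vretenoGD ovaries, 411 in siPIWI OSCs and 28 in siGFP OSCs. In arrestin2GD ovaries it shared the highest upstream count, 2 reads, with positions 1648 and 1664. Position 1672 took 21.3% of the upstream reads with siPIWI (19.5 to 23.2) and 17.3% with siGFP (11.8 to 24.0). Within 25 nt of 1672 lay 8.20% of blood reads in vretenoGD ovaries (5.43 to 11.8) against 14.3% in arrestin2GD ovaries (5.94 to 27.2), and 31.0% in siPIWI OSCs (29.6 to 32.6) against 28.6% in siGFP OSCs (23.6 to 34.0). The intervals overlapped within each pair. Positions 1664, 1683, 1679 and 1648 followed in siPIWI OSCs, with 167, 166, 115 and 110 reads.

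The 3' ends were gathered at a pair of positions 4 nt apart, 7365 and 7369. Position 7365 held 55 reads in vretenoGD ovaries against 10 in arrestin2GD ovaries, and 533 in siPIWI OSCs against 46 in siGFP OSCs. Position 7369 held 53 reads in vretenoGD ovaries against 4 in arrestin2GD ovaries, and 468 in siPIWI OSCs against 38 in siGFP OSCs. Together they took 34.1% of blood reads in vretenoGD ovaries (28.9 to 39.6) against 28.6% in arrestin2GD ovaries (16.6 to 43.3), and 26.6% in siPIWI OSCs (25.2 to 28.1) against 27.3% in siGFP OSCs (22.4 to 32.6). The intervals overlapped within each pair. Counted within 25 nt of 7365, the shares were 44.2% in vretenoGD ovaries (38.6 to 49.8) against 40.8% in arrestin2GD ovaries (27.0 to 55.8), and 34.1% in siPIWI OSCs (32.6 to 35.7) against 32.5% in siGFP OSCs (27.3 to 38.0). Of the reads at these 2 positions, the share at 7365 was between 50.9% and 71.4%, and the intervals of all 4 libraries overlapped.

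Another 3' position was used in ovary and hardly in OSCs. Position 7240, which lies 170 nt before the end of the consensus and 125 nt before 7365, held 66 reads in vretenoGD ovaries and 6 in arrestin2GD ovaries. It held 1 of 3759 reads in siPIWI OSCs and 0 of 308 in siGFP OSCs, where a limit of 3 reads allows a share of up to 0.974%. The share of blood reads was 20.8% in vretenoGD ovaries (16.5 to 25.7), where it was the most used position, and 12.2% in arrestin2GD ovaries (4.63 to 24.8), against 0.0266% in siPIWI OSCs (upper bound 0.148). The ovary intervals lay above those of both OSC libraries and overlapped each other. All ovary reads within 25 nt of it fell on the 1 nucleotide itself, 66 of 66 and 6 of 6, whereas the ends near 7365 were spread over several positions.

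Position 7240 was singled out after its values had been seen. By the same measure (at least 10% of reads in both ovary libraries and at most 1% in both OSC libraries, a rule set afterwards), it was the only such position in the 5 transposons that reached 40 reads in every library, namely blood, copia, pogo, '1360' and DNAREP1. Within ovary it was 12.2-fold higher with vretenoGD (5.31 to 34.4), an interval that includes the fold of the whole element. With position 7240 left out, the share of 3' ends was 75.7% in vretenoGD ovaries (69.9 to 80.9) and 72.1% in arrestin2GD ovaries (56.3 to 84.7). The odds of a 3' end were then 3.30 times higher in vretenoGD ovaries than in siPIWI OSCs (2.44 to 4.51), and 2.87 times higher in arrestin2GD ovaries than in siGFP OSCs (1.37 to 6.35).

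**Figure D3:**
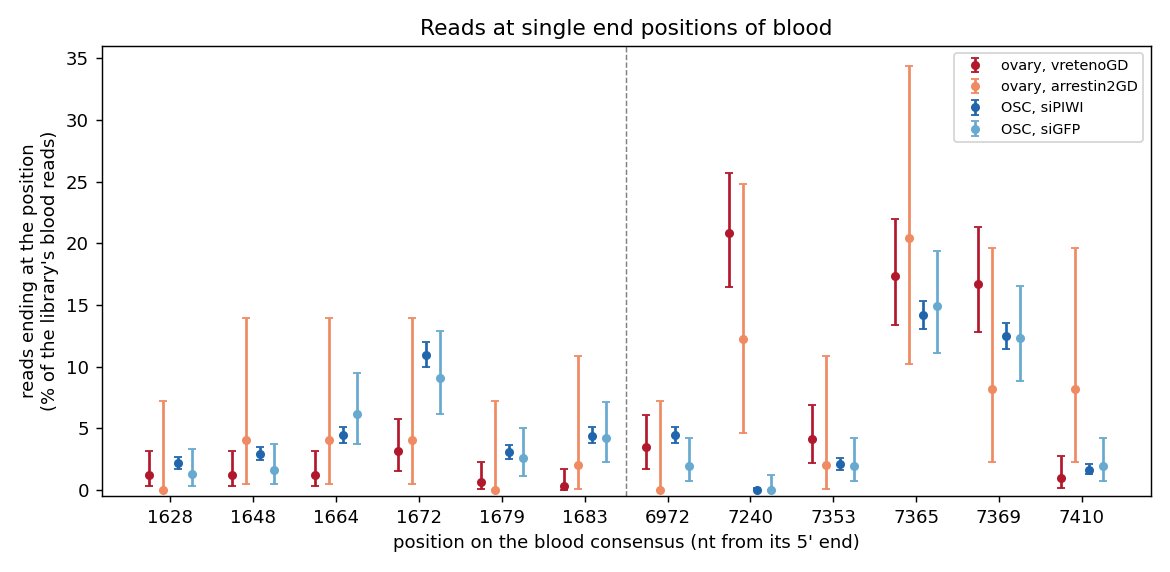
Percentage of each library's blood reads at the 12 positions with most reads over the 4 libraries together, with exact 95% counting intervals; positions left of the dashed line are upstream ends. Position 7240 held 20.8% and 12.2% in the vretenoGD and arrestin2GD ovary libraries against 0.0266% with siPIWI and 0 reads with siGFP in OSCs, while positions 7365 and 7369 were used in all 4.

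Not every stretch of blood moved by the factor of the whole element. In OSCs, reads ending between 1701 and 6800 were 1.82-fold higher with siPIWI (1.07 to 3.26), an interval below that of the whole element, and their share was 1.73% with siPIWI (1.34 to 2.20) against 5.84% with siGFP (3.5 to 9.08). Position 6972 was 14.02-fold higher with siPIWI (167 against 6 reads, 6.31 to 38.8), with an interval that overlaps that of the whole element. It held 11 reads in vretenoGD ovaries and 0 in arrestin2GD ovaries. The last 20 nt of the consensus, from 7391, held 3 reads in vretenoGD ovaries against 5 in arrestin2GD ovaries, a share of 0.946% (0.196 to 2.74) against 10.2% (3.40 to 22.2). In OSCs they held 127 reads with siPIWI against 15 with siGFP, 3.38% (2.82 to 4.01) against 4.87% (2.75 to 7.91). The ovary intervals did not overlap, on 8 reads in all, and those of OSCs did.

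The mdg1 group was used as the nearest frame for blood. Of 8 other names listed for it, 6 were matched (Stalker3 and Stalker4 were not), and 1 of these, Pifo, is an entry from another fly species whose place in the group is uncertain. With 10 reads in both libraries of the pair, mdg1 passed the 4-fold rule in ovary and '412' did not (1 of 2, where 10% of all transposons passed), and mdg1, '412', Stalker and Stalker2 passed in OSCs (4 of 4, where 18.5% passed). With 10 reads in either library and without Pifo, 4 of the other 5 passed in ovary and 5 of 5 in OSCs, where 26.7% and 24.7% of all transposons did. Tabor in both tissues and Stalker and Stalker2 in ovary met that minimum through the knockdown library alone. In ovary '412' had 910 against 256 reads (3.94-fold, 3.42 to 4.54). With Pifo, which had under 10 reads in both ovary libraries, the OSC count was 6 of 6. Pifo, too, met the minimum in OSCs through the knockdown library alone, with 120 against 1 reads. The fold of blood in ovary was like that of Stalker, an mdg1-group element with 26 against 4 reads (7.20-fold, 2.50 to 28.4), and lay below that of Stalker2 (78 against 3 reads, 28.8-fold, 9.49 to 143) with overlapping intervals. In OSCs '412' (122-fold, 78.8 to 200) and mdg1 (46.1-fold, 37.4 to 57.4) had intervals far above that of blood.

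The relation of 3' to upstream ends set blood apart from 4 of these elements in OSCs. The fold of 3' ends over that of upstream ends was 17.5 for mdg1 (7.67 to 49.0), 10.4 for '412' (2.49 to 92.6), 5.16 for Stalker (2.15 to 12.4) and 2.57 for Stalker2 (1.74 to 3.87). All 4 intervals lay above that of blood, which ended at 1.33. For Tabor it was 1.84 (0.209 to 22.1), on 5 control reads, so no difference from blood was detectable. In ovary only '412' (12.9, 7.53 to 23.8) had an interval above that of blood (1.36, 0.608 to 2.86). The ovary interval of mdg1 (1.59, 0.342 to 9.89) overlapped that of blood, on 10 control reads. So did those of Stalker, Stalker2 and Tabor, on 4, 3 and 2 control reads. In siGFP OSCs 6.74% of mdg1 reads (2.51 to 14.1) and 2 of 20 reads of '412' were 3' ends, against the 47.4% of blood. For Stalker the share was 48.1% (28.7 to 68.1), close to that of blood, for Stalker2 it was 30.5% (22.8 to 39.2), and 2 of 5 reads of Tabor were 3' ends. In arrestin2GD ovaries 5.86% of '412' reads (3.32 to 9.48) were 3' ends, against the 75.5% of blood and 3 of 4 reads of Stalker.

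**Figure D4:**
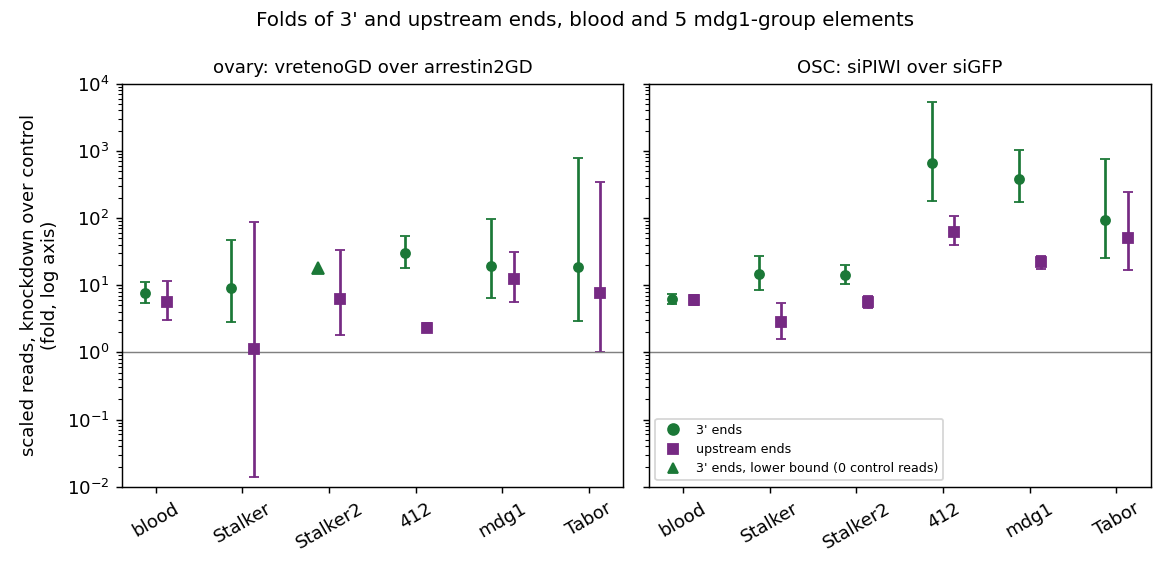
Folds of 3' ends (circles) and upstream ends (squares) in scaled reads, knockdown over control, for blood and 5 other mdg1-group elements, on a log axis with exact 95% counting intervals; the triangle is a lower bound where the control had 0 reads. For blood both folds lie close together, 6.30 and 6.01 in OSCs, while for '412', mdg1, Stalker and Stalker2 the 3' fold lies above the upstream fold in OSCs.

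The place of the upstream ends of blood was near that of 4 group members. In siPIWI OSCs 96.1% of its upstream reads (95.2 to 96.9) ended between 15% and 25% of the consensus length, and the main upstream position lay at 22.6%. The same stretch held 91.2% of upstream reads for Stalker2, 88.8% for '412', 85.4% for mdg1 and 83.3% for Tabor, with main positions at 16.5% to 19.2% of the length. Stalker differed, with 32.1% (21.9 to 43.6) there and its main upstream position at 5.29%, and Pifo had 0 of 6 upstream reads there. Outside the group the median was 0.628% over 32 transposons with at least 10 upstream reads, and 0 of these 32 reached 83.3%, the value of Tabor. The highest were R2-element (70% of 10 upstream reads), gypsy5 (55.6% of 18) and gypsy12 (47.8% of 502), all above Stalker. The bounds of 15% and 25% were set with the group's positions known, so these shares are a description.

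The transposons with the pattern most like that of blood over the 4 libraries were found by the distance between centred log2 shares, among 77 candidates with at least 10 reads in their highest library. Stalker was nearest, at a distance of 0.381 log2 units. I-element followed at 1.15, F-element at 1.41, HMS-Beagle2 at 1.43 and Quasimodo at 1.47. The first is an mdg1-group element, the next 2 are non-LTR retrotransposons and the last 2 are other LTR elements of the Ty3/gypsy class. The I-element value rests on 9 reads in vretenoGD ovaries and 2 in arrestin2GD ovaries, and each distance covers only 4 libraries. In arrestin2GD ovaries the other named elements also had few reads, with 4 for Stalker, 7 for F-element, 3 for HMS-Beagle2 and 4 for Quasimodo.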

How the data were processed

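TRIzol-extracted RNA was poly(A)-selected with oligo(dT) beads and made into libraries with the RNA002 direct RNA kit (Oxford Nanopore), per the labels' protocols. Such reads begin at the RNA's 3' end. The authors deposited whole-number counts per consensus position, without strand or normalization, per the file headers. The files do not state what was counted, and the counts were taken as 3' ends of reads. The 3759 counts of blood in siPIWI OSCs lay on 270 of 7410 positions, as counts of ends rather than coverage would. This sparseness cannot tell 3' ends from 5' ends. The submitters' processing notes name minimap2; its settings, the reference set and the handling of reads with several matches are not given in the sources used here. Intervals assume that each read was counted 1 time.

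Counts were summed per element; the pseudocount of 1 read was added after scaling. Shares have Clopper-Pearson intervals, folds and odds ratios exact conditional ones, and the difference of log2 folds a normal one (Python 3.11.15, SciPy 1.17.1). The intervals of shares and folds were tested on simulated data, those of folds with the true scaling given. Those of shares were tested at a single setting, with more reads than blood had in arrestin2GD ovaries and a share far above the lowest ones given. The intervals of odds ratios and of the difference of log2 folds were not tested in this way. Satellites and other non-transposons (26 sequences) were left out of transposon totals. Named elements were blood, the mdg1 group and the 5 nearest in pattern; members and lists were chosen with earlier results of these data known. Alternatives were other scalings, divisions, windows, minimums and pseudocounts.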

Additional observations from a re-analysis of the deposited data

How the results depend on the processing

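No paired analysis was possible because each group had 1 library. Of 83 alternatives for the folds, shares of 3' ends, the difference of folds and the counts, 50 kept the value within its counting interval (counts within 1.5 times), 33 moved it, and none turned a fold of blood below 1. Scaled to total transposon reads, with or without copia, the ovary fold was 2.99 or 2.87 (3' ends 3.20 or 3.06, upstream ends 2.35 or 2.25) and the OSC fold 4.24 or 2.41 (3' ends 4.34 or 2.47, upstream ends 4.14 or 2.36). Under these 2 scalings blood no longer passed the 4-fold rule in ovary, nor in OSCs without copia. Scaled to non-transposon reads, the ovary fold was 10.7 (3' ends 11.5). Unscaled, the OSC fold was 12.2 (3' ends 12.5, upstream ends 11.9). Distinct positions numbered 67 in vretenoGD against 24 in arrestin2GD ovaries, and 270 in siPIWI against 99 in siGFP OSCs. Divided by the same median ratios, which come from reads, they gave folds of 3.09 in ovary and 1.37 in OSCs. These 2 folds thus carry a scaling of reads put on counts of positions. The shares of 3' positions were 55.2% in vretenoGD ovaries against 62.5% in arrestin2GD ovaries, and 42.6% in siPIWI OSCs against 37.4% in siGFP OSCs. In ovary this order is the reverse of that by reads, 80.8% against 75.5%. By this construction a position counts as 1 however many reads it holds. Without position 7240, chosen after seeing the data, the share of 3' ends in vretenoGD ovaries was 75.7%. The log2 fold in OSCs minus ovary was 0.50 with total scaling, -0.91 with non-transposon reads and 0.92 unscaled, so its sign rests on the scaling. Transposons past the 4-fold rule in ovary numbered 7 with total scaling, 6 without copia, 7 with a pseudocount of 10 reads and 6 with a minimum of 50 reads, and in OSCs 10 without copia. With 10 reads in both libraries, a minimum chosen after seeing the data, they numbered 3 in ovary and 10 in OSCs. Of 40 alternatives for the shares within 25 nt of the 5 pooled peaks (7365, 1672, 6972, 1628 and 7410), 19 moved a share, since wider or narrower windows take in more or fewer positions. The planned removal of the 5' terminal repeat was not run for lack of a sequence; the first 398 nt were left out in its place, which moved no share of 3' ends. The 49 reads in arrestin2GD ovaries limit each ovary comparison.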

Other observations

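A few blood reads ended in the first part of the element at the same spacing as the main 3' pair. Positions 353 and 357 lie 7012 nt before 7365 and 7369. In siPIWI OSCs they held 7 and 3 reads, and in siGFP OSCs 1 and 1. Neither ovary library had a read at either. The first 398 nt, which lie at that spacing from the end of the consensus, held 1 of 317 reads in vretenoGD ovaries against 0 of 49 in arrestin2GD ovaries, and 20 of 3759 in siPIWI OSCs (0.532%, interval 0.325 to 0.821) against 7 of 308 in siGFP OSCs (2.27%, 0.919 to 4.63). Terminal repeats of LTR elements are near identical, and how reads were placed between them is not given in the sources used here. The OSC intervals did not overlap.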
